A study of Mus musculus with 48 samples.

Results

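Potassium channel genes of the mouse were followed through the day in the pars tuberalis, the thin layer of pituitary tissue around the stalk that reads day length from melatonin and releases thyrotropin in long days. The members were all genes whose symbol begins with Kcn in the array's probe annotation, taken from probe sets with a single symbol and each represented by whichever of its probe sets was brightest on average across the 48 arrays. This gave 84 genes of 18194 measured, 81 of them with protein-coding symbols and 43 with a mean log2 value above 7. The last member above that level was Kcna4, with a mean of 7.004, next to Kcnh8 with 7.33, and the first below it were Kcnn4 with 6.92 and Kcnk12 with 6.90.

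Each array measured RNA pooled from 25 male CBA/N mice, whose pars tuberalis was punched with a needle of 0.5 mm from frozen brain slices of 0.5 mm. All mice first lived for 3 weeks in short days of 8 h light. The short-day group stayed there and the long-day group then had 2 weeks of 16 h light, and both were 8 weeks old. The other groups were sampled on their first long day at an age of 6 weeks. In the advance group the lights came on 8 h early, at ZT16 of the short-day cycle, and in the delay group they stayed on 8 h longer, until ZT16. ZT is the time in hours since the lights came on, and first-day samples are given on the ZT scale of the preceding short days. Every condition had 6 time points 4 h apart with 2 arrays each, so n = 2 per time point and n = 12 per condition. The second array came from a repeat of the procedure, so the spread is that between 2 pools and not between single mice, and it may be partly technical. Punched tissue holds several cell types, and in such RNA fewer cells of a type and less RNA per cell cannot be told apart.

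Potassium channels let potassium leave or enter the cell and thereby set the resting potential, shape action potentials and limit how long calcium channels stay open. In endocrine cells and neurons these properties govern firing and secretion. The voltage-gated pore genes (Kcna, Kcnb, Kcnc, Kcnd, Kcnq and Kcnh) open on depolarisation, and their auxiliary genes (Kcnab, Kcne and Kcnip) alter gating or traffic. The silent modifiers (Kcnf, Kcng, Kcns and Kcnv) form no channel alone but join other subunits. Inward rectifiers (Kcnj) and two-pore leak channels (Kcnk) hold the resting potential, and the Kcnm, Kcnn, Kcnt and Kcnu genes make channels that are activated by calcium or sodium or, for Kcnu1, belong to that family by sequence.

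Transcripts of every class were measured above a mean of 7. The voltage-gated pore class held 22 genes, 18 of them above 7, and the inward rectifiers held 15, with 8 above 7. Of 12 auxiliary genes 7 lay above 7, of 12 two-pore genes 4, of 11 calcium- or sodium-activated genes 4, and of 9 silent modifiers only Kcnf1. The remaining 3 symbols were Kcnq1ot1, Kcnmb4os1 and Kcnmb4os2, which are grouped here as noncoding, and Kcnq1ot1 was above 7. The brightest probe sets were those of Kcnc2 and Kcna5 among the pores, Kcnab1 and Kcnip4 among the auxiliaries, Kcnf1 and Kcnv2 among the silent modifiers, Kcnj10 and Kcnj9 among the inward rectifiers, Kcnk2 and Kcnk1 among the two-pore genes, and Kcnma1 and Kcnmb4 among the calcium- or sodium-activated genes. Probe sets differ in brightness for reasons other than abundance, so the levels are compared between conditions for 1 gene and not between genes.

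The tissue label was checked against marker genes. Of 6 thyrotroph markers 5 were measured, and 4 of these rose in long days, Tshb by 3.56 and Eya3 and Mtnr1a by 0.90 each on the log2 scale, while Cga differed by 0.03 and did not pass. The mean of that list lay between 10.7 and 11.6 on the short-day arrays and between 11.8 and 12.5 on the long-day arrays. Neuronal markers were also bright, with list means of 11.04 to 11.58 in the chronic conditions and 10.80 to 11.35 in the first-day conditions. Over 15 clock genes 44 of the 48 arrays lay nearest to their own time point among those of their condition. The 4 long-day arrays of ZT16 and ZT20 went against their labels, each lying nearer to the other of these times. Measured as the root of the summed squared log2 differences over the clock genes, both arrays of ZT16 were 2.11 apart and both of ZT20 2.13. By contrast the first of ZT16 was 0.53 from the second of ZT20, and the second of ZT16 was 1.05 from the first of ZT20. In the 22 other groups the distance between a group's arrays ran from 0.376 to 1.02. Arrays were kept under their labels, whether any were exchanged was not tested, and long-day results are also given without these 4. On 6 arrays Gh or Prl, hormones of the pars distalis, exceeded 10, and calls of named members that end without these arrays are given below.

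Long days moved many potassium channel genes in either direction, most by small amounts. With limma and Benjamini-Hochberg adjustment over all genes, 37 of 84 members passed an adjusted p of 0.05 between long and short days averaged over the day, 11 higher and 26 lower. Over all genes the share that passed was 46.7%, with 17.6% higher and 29.1% lower, so the members' share of 44% was near the background. Among the 43 members above 7 it was 27, or 62.8%, beside 63.4% of all genes above 7. The median change was -0.049 over the members and -0.029 over all genes on the log2 scale. The split by direction moved with scaling. Here and below, centring aligned the arrays by their medians over the genes with a mean above 7, not over all genes. With it 39 members passed, 20 higher and 19 lower, and the median change of all genes moved from -0.029 to 0.036. The share of all genes that passed after centring is not given here. Over the 4 time points ZT0 to ZT12, which leaves out the 4 long-day arrays above, 37 members passed as well, 31 of them in common with the full day. Of the members that the naming rule gives, the calls of Kcne4 (adjusted p = 0.202), Kcnj13 (0.0797), Kcnd3 (0.096) and Kcna2 (0.139) ended there.

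Kcnh2 encodes the ERG channel, which carries a slowly deactivating current in heart, neurons and pituitary cells. On the short-day arrays its log2 value ran from 9.06 through a median of 9.47 to 9.70, and on the long-day arrays from 8.61 through 8.72 to 8.91. Every long-day array lay below every short-day array. The difference was -0.66 ± 0.06 (SE, n = 12 arrays per condition; 1.58-fold lower; limma adjusted p = 5.2e-11). Among the 22 voltage-gated pore genes 10 passed, or 45.5%, 2 higher and 8 lower, beside 46.7% of all genes. Kcnd1, an A-type channel pore, fell by 0.38 ± 0.05, Kcna6 by 0.29 ± 0.07, Kcnc4 by 0.25 ± 0.05 and Kcnq5, an M-current subunit, by 0.24 ± 0.05 on the log2 scale. Kcna1 rose instead, from a range of 8.05 to 8.64 around a median of 8.24 to a range of 8.43 to 8.92 around 8.67, a change of 0.40 ± 0.05 (limma adjusted p = 3.81e-08). The Kcna1 ranges overlapped between 8.43 and 8.64. Kcna2, a close relative of Kcna1 that forms mixed channels with it in axons, went the other way and fell by 0.24 ± 0.04. Kcnd3, an A-type pore, rose by 0.11 ± 0.04, a call that ended without any 1 of 12 of the 24 arrays and without the arrays high in Gh or Prl. The other 12 pore genes did not pass.

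Of the 12 auxiliary genes 7 passed, or 58.3%, 1 higher and 6 lower, beside 46.7% of all genes. Kcnip2 encodes a calcium-binding partner of A-type channels. Its short-day arrays ran from 9.01 through 9.22 to 9.55 and its long-day arrays from 8.61 through 8.80 to 8.93, again without overlap, and the change was -0.45 ± 0.05 (1.37-fold lower; limma adjusted p = 2.41e-09). Kcnip1 fell by 0.43 ± 0.07 and Kcnip3 by 0.22 ± 0.06, while Kcnip4 stood at -0.01 and did not pass (limma adjusted p = 0.851). Kcnab2, a cytoplasmic beta subunit, fell by 0.35 ± 0.07. Kcne1l, a small single-pass subunit, fell by 0.49 ± 0.10, and Kcne4, another of that family, rose by 0.22 ± 0.06.

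Of the 15 inward rectifiers 5 passed, 4 higher and 1 lower, and 10 did not. That share of 33.3% lay below the 46.7% of all genes, and the median change of the class was 0.046 on the log2 scale. Kcnj10, the glial channel that clears extracellular potassium, ran from 11.001 through 11.15 to 11.41 in short days and from 11.47 through 11.62 to 11.83 in long days. All long-day arrays exceeded all short-day arrays, and the change was 0.42 ± 0.05 (1.34-fold; limma adjusted p = 2.37e-09). Kcnj5, a G protein-gated channel subunit, rose by 0.29 ± 0.06, Kcnj13 by 0.26 ± 0.09 and Kcnj1 by 0.12 ± 0.05, the last a call that ended without any 1 of 14 of the 24 arrays and without the arrays high in Gh or Prl. Kcnj8, a pore of the ATP-sensitive channel, fell by 0.14 ± 0.05. Markers of astrocytes, which carry Kcnj10, did not move as a list: 6 of 8 passed, 3 in each direction, and list means were 10.61 to 11.04 in short days and 10.50 to 10.88 in long days. Those that passed were, by smallest p, Slc1a3, Gjb6, Gfap, Gja1, S100b and Aqp4. Gjb6, which rose by 0.72, was 1 of the 3 higher ones, and the other 3 were lower.

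Of the 12 two-pore leak genes 6 passed, or 50%, 3 in each direction, beside 46.7% of all genes. Kcnk1 had short-day values from 9.94 through 10.22 to 10.35 and long-day values from 10.37 through 10.47 to 10.67, which did not overlap, and it rose by 0.30 ± 0.04 (limma adjusted p = 8.93e-08). Kcnk10 rose by 0.24 ± 0.06 and Kcnk2, a mechanosensitive leak channel, by 0.12 ± 0.04. Kcnk12 fell by 0.45 ± 0.05, Kcnk6 by 0.33 ± 0.06 and Kcnk3, an acid-sensitive leak channel, by 0.31 ± 0.06.

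Calcium- or sodium-activated genes that passed were all lower, 4 of 11. That was 36.4%, beside 46.7% of all genes in either direction and 29.1% lower. Kcnmb4, a beta subunit that slows the large-conductance calcium-activated channel, ran from 8.60 through 8.78 to 9.16 in short days and from 8.17 through 8.43 to 8.58 in long days, without overlap, a change of -0.42 ± 0.06 (limma adjusted p = 5.95e-07). Its pore gene Kcnma1 had a mean of 8.75 ± 0.17 (SD, n = 12) in short days and 8.74 ± 0.14 in long days. Kcnt1, a sodium-activated channel, fell by 0.25 ± 0.06 and the beta subunit Kcnmb2 by 0.20 ± 0.07. The silent modifiers passed in 4 of 9 cases, or 44.4%, 1 higher and 3 lower. Kcnv2 rose by 0.65 ± 0.12, the largest rise among the members, from a short-day range of 5.53 to 7.75 to a long-day range of 6.87 to 7.40, so the long-day arrays lay inside the upper part of the short-day range. Kcng2 fell by 0.25 ± 0.05.

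**Figure D1:**
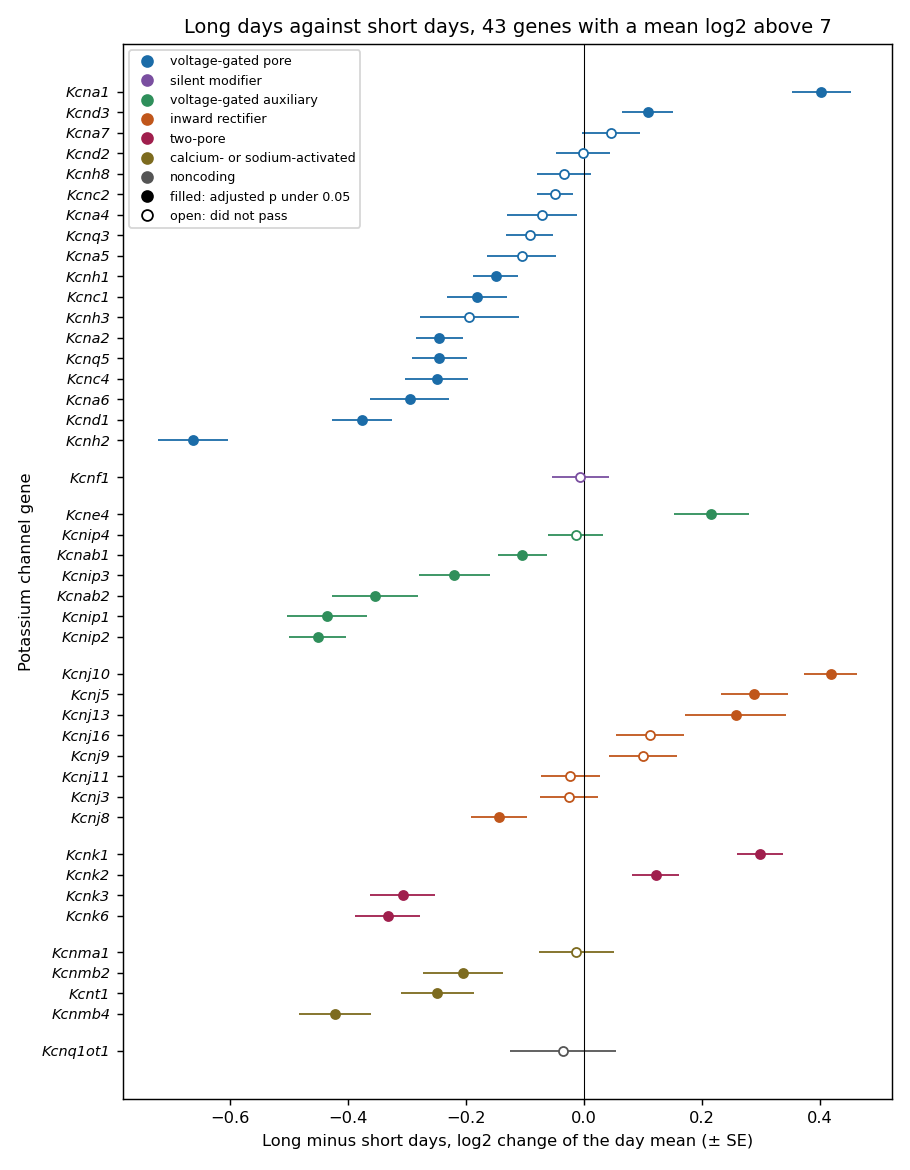
Change in log2 value from short to long days (horizontal axis) for the 43 potassium channel genes with a mean above 7, grouped by class; points are the limma estimate, bars its SE, and filled points passed an adjusted p of 0.05. Kcnh2 and Kcnip2 lie farthest to the left and Kcnj10 and Kcna1 farthest to the right.

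The difference between the 3′ and 5′ actin control probes, which grows as RNA is degraded or incompletely copied, was 1.89 ± 0.12 (SD, n = 12) in short days and 1.65 ± 0.12 in long days. With it as a covariate 23 members passed instead of 37, 20 of them in common. The share of all genes that passed in that fit is not given here, so the drop cannot be read as particular to the members. The 17 calls lost were those of Kcna6, Kcnc1 and Kcnc4 among the pores, Kcnab2, Kcne1l and Kcnip3 among the auxiliaries, Kcng1, Kcng2 and Kcns2 among the silent modifiers, Kcnj1, Kcnj5 and Kcnj13 among the inward rectifiers, Kcnk2, Kcnmb2, Kcnt1, Kcnu1 and Kcnmb4os2. Kcnh2, Kcnip2, Kcnj10, Kcna1, Kcnk1 and Kcnmb4 kept theirs. The inhibitory neuron marker Slc32a1 fell by 0.72 in long days, while 6 of 11 neuronal markers passed with 3 in each direction. The part of neuronal RNA in these changes was not tested. Of 39 other probe sets for 23 of the changed members, 25 had the same sign as the one used. For Kcnip2, Kcnd1 and Kcnk3 both other probe sets had it, for Kcnk1 the single other one did, and for Kcnmb2, Kcnab1, Kcnab2, Kcnc4, Kcnj1, Kcnj5 and Kcns2 the single other one did not. With the median of a gene's probe sets in place of the brightest, the calls of Kcnip2 (-0.08, adjusted p = 0.168), Kcna2 (-0.02, 0.633), Kcnab2 (-0.11, 0.0638), Kcnd3 (0.08, 0.145) and Kcnj1 (0.04, 0.501) ended and Kcnq5 changed sign (0.133, 0.144).

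The first-day conditions together differed from short days at 41 of 84 members, 13 higher and 28 lower by limma, beside 55.1% of all genes, 25.6% higher and 29.5% lower. The members' share was 48.8%. With arrays centred in the same way 47 passed, 26 higher and 21 lower, and the median change of all genes moved from 0.006 to 0.064. The first-day mice were 6 weeks old and the short-day mice 8 weeks, so lighting, age and cohort cannot be told apart here. The comparison also shares the short-day arrays with the one between long and short days.

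Kcnmb2, whose protein makes the large-conductance calcium-activated channel inactivate, was higher in both first-day conditions. Its short-day arrays ran from 6.48 through 7.44 to 7.65, the advance arrays from 7.51 through 7.83 to 8.24 and the delay arrays from 7.61 through 7.92 to 8.12. Nearly all first-day arrays lay above the short-day ones, with a small overlap, and all of them lay above the long-day range of 6.86 to 7.33. The change against short days was 0.55 ± 0.06 (1.47-fold; limma adjusted p = 1.1e-09), and its second probe set had the same sign. Kcne4 rose by 0.42 ± 0.05, Kcnv2 by 0.50 ± 0.10, Kcnj5 by 0.34 ± 0.05 and Kcnh3, a brain channel related to Kcnh2, by 0.31 ± 0.07. Smaller rises were those of the inward rectifiers Kcnj13, by 0.30 ± 0.07, Kcnj6, by 0.12 ± 0.04, and Kcnj2, by 0.11 ± 0.04, of Kcnt2, a sodium-activated channel, by 0.22 ± 0.06, of Kcnab1, by 0.16 ± 0.04, and of Kcns1, by 0.12 ± 0.04. Kcnj2 and Kcns1 had low mean levels of 4.25 and 5.12, and each call ended without any 1 of 2 of the 36 arrays. That of Kcnj6 ended without any 1 of 3, and 2 of its 4 other probe sets had the opposite sign.

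Of the other genes of the large-conductance channel, Kcnma1 and Kcnmb4 fell and Kcnmb1, another beta subunit, rose by 0.15 ± 0.05. The mean level of Kcnmb1 was low, 5.26, and its call ended without any 1 of 3 of the 36 arrays. Kcnma1, the pore, had a short-day range of 8.37 to 9.02, an advance range of 8.18 to 8.68 and a delay range of 7.75 to 8.35. The delay arrays lay below all short-day arrays, the advance arrays overlapped both, and the change was -0.46 ± 0.06 (limma adjusted p = 1.09e-08). Kcnmb4 ranged from 8.14 to 8.45 in advance and from 8.04 to 8.59 in delay, below all short-day arrays in each case, and fell by 0.50 ± 0.05. Of the 4 other Kcnma1 probe sets 3 had the same sign here and 1 had the opposite sign, with a change of 0.40.

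Other falls on the first day were in A-type partners, leak and pore genes. Kcnk12, a two-pore gene, fell by 0.55 ± 0.05 with the smallest p of the members (limma adjusted p = 1.28e-11). Kcnip2 fell by 0.43 ± 0.04, Kcnip1 by 0.53 ± 0.06 and Kcnip4 by 0.23 ± 0.04. Kcnh2 fell by 0.51 ± 0.05, Kcnc4 by 0.38 ± 0.05, Kcna2 by 0.28 ± 0.03 and Kcna5 by 0.26 ± 0.05. Kcne1l fell by 0.63 ± 0.09 and Kcnab2 by 0.35 ± 0.06. Of 50 other probe sets for 24 of the members that passed here, 31 had the same sign as the one used. The single other one for Kcnab2 had the opposite sign, with a change of 0.13, as had 2 of 3 for Kcna2. With the median of a gene's probe sets, Kcnip2 stood at 0.0277 (adjusted p = 0.579), the opposite sign, and Kcna2 at -0.04 (0.31). Kcnj10 fell by 0.18 ± 0.04, whereas its value in long days against the same short-day arrays was higher by 0.42, and its advance range of 10.91 to 11.18 and delay range of 10.89 to 11.14 lay below all long-day arrays. Two-pore genes were otherwise little called, with Kcnk12 alone of 12 passing. Slc32a1 fell by 0.81 in this comparison, and of 11 neuronal markers 6 passed, all lower. Of 6 meningeal markers 4 rose and of 7 pericyte markers 5 rose, with pericyte list means of 8.38 to 9.01 in short days, 8.79 to 9.01 in advance and 8.69 to 8.97 in delay. Their part in the potassium channel changes was not tested.

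**Figure D2:**
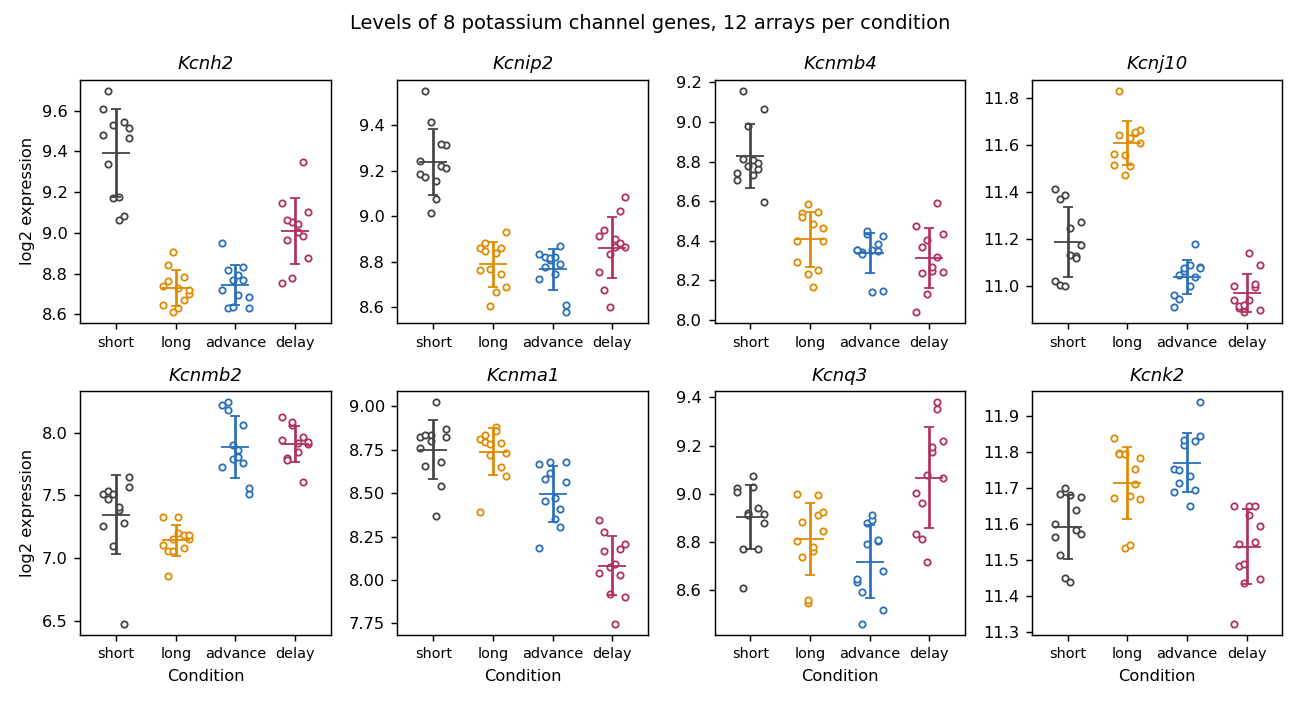
Log2 values of 8 potassium channel genes on the 12 arrays of each condition (points), with the mean and SD (bars). Kcnh2, Kcnip2 and Kcnmb4 are highest in short days, Kcnj10 is highest in long days, and Kcnmb2 is highest in both first-day conditions.

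Advance and delay were compared directly, since mice of both had the same age and the same earlier lighting. By limma 12 of 84 members passed, or 14.3%, 3 higher and 9 lower in advance, beside 24.1% of all genes, 10.3% higher and 13.8% lower, so fewer members than genes in general were called. All 6 called voltage-gated pore genes of 22 were lower in advance. Kcnq3, a subunit of the M-current that restrains firing, ran from 8.46 through 8.74 to 8.91 in advance and from 8.72 through 9.07 to 9.38 in delay. Most delay arrays lay above the advance arrays, with overlap at the edge, and the difference was -0.35 ± 0.04 (limma adjusted p = 1.1e-07). Its partner Kcnq5 differed by -0.26 ± 0.05, Kcnh2 by -0.27 ± 0.06, Kcnc1, a fast-repolarising pore, by -0.22 ± 0.05, Kcna6 by -0.27 ± 0.07 and Kcna2 by -0.15 ± 0.04. Kcnk3 and Kcnk6 were lower by -0.19 ± 0.06 and -0.18 ± 0.06 and Kcnv1 by -0.20 ± 0.07. The Kcnk6 call ended without the first delay array of ZT16 (adjusted p = 0.0533), and that of Kcnv1 without the first advance array of ZT16, ZT0 or ZT4 or the first delay array of ZT0, ZT8 or ZT20, with adjusted p-values up to 0.0605. Under the median of the probe sets these calls ended for Kcnq5 (-0.11, adjusted p = 0.276), Kcna6 (-0.05, 0.465), Kcna2 (-0.06, 0.21), Kcnk3 (-0.12, 0.18) and Kcnv1 (-0.08, 0.48), and Kcnc1 changed sign (0.0121, 0.876).

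The genes higher in advance were Kcnma1, Kcnk2 and Kcnv2. Kcnk2 ran from 11.65 through 11.75 to 11.94 in advance and from 11.32 through 11.55 to 11.65 in delay, so the groups met at 11.65, and differed by 0.23 ± 0.04 (limma adjusted p = 6.2e-05). Kcnma1 differed by 0.42 ± 0.06 and Kcnv2 by 0.43 ± 0.12. For Kcnma1 all 4 other probe sets had the opposite sign, so its direction depends on the probe set, and with the median of its probe sets it stood at 0.01 (adjusted p = 0.96). The actin difference was 1.69 ± 0.09 in advance and 1.85 ± 0.13 in delay, and 5 of 6 meningeal markers were higher in advance. Their part in these differences was not tested. No member had advance arrays entirely apart from the delay arrays, and how many of all genes did was not counted.

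Daily variation was tested in each condition with a limma F test across the 6 time points. Kcna2, which encodes a low-threshold pore that limits repetitive firing, was the only member that passed in all 4 conditions. In short days 6 of 84 members varied, or 7.14%, beside 8.91% of all genes. In long days 1 did, beside 1.63%. In advance 4 did, or 4.76%, beside 2.58%, and in delay 5, or 5.95%, beside 1.52%. In advance and delay the members' share was above that of all genes, from 4 and 5 members. The next smallest p-values in long days were those of Kcnf1 and Kcna4, which did not pass (limma adjusted p = 0.108 and 0.112).

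Kcna2 in short days fell from 9.81 and 9.97 at ZT0 to 9.37 and 9.49 at ZT4, stood at 9.47 and 9.46 at ZT8 and 9.38 and 9.66 at ZT12, and returned to 9.76 and 9.77 at ZT16 and 9.92 and 10.06 at ZT20. It was therefore high in the late night and low in the afternoon, with a range of 0.56 between time-point means (limma adjusted p = 0.000283). In long days the arrays read 9.50 and 9.60 at ZT0, 9.63 and 9.77 at ZT4, 9.33 and 9.54 at ZT8, 9.30 and 9.20 at ZT12, 9.25 and 9.45 at ZT16, and 9.28 and 9.33 at ZT20. The high values there were at ZT0 and ZT4 and the low ones from ZT12 to ZT20 (range 0.45, limma adjusted p = 0.0391). This call ended without either array of ZT0, ZT4 or ZT12 or the first of ZT20, with adjusted p-values up to 0.352, and without the arrays high in Gh or Prl (adjusted p = 0.564). Over ZT0 to ZT12 alone, without the 4 arrays whose clock genes went against their labels, it was 0.0471, and those arrays lay at or below 9.45 whichever time they belong to. A cosine with a period of 24 h put the peak at ZT20.1 in short days and at ZT3.06 in long days.

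The first-day courses of Kcna2 were not tested against the short-day course. In advance, where the lights came on at ZT16, it read 9.49 and 9.39 at ZT16, 9.56 and 9.64 at ZT20, 9.53 and 9.48 at ZT0, 9.16 and 9.20 at ZT4, 9.16 and 9.07 at ZT8, and 9.02 and 9.17 at ZT12. In delay it read 9.85 and 9.69 at ZT0, 9.43 and 9.48 at ZT4, 9.17 and 9.16 at ZT8, 9.10 and 9.34 at ZT12, 9.41 and 9.44 at ZT16, and 9.71 and 9.90 at ZT20. Advance was low from ZT4 to ZT12. Delay was lowest at ZT8 and ZT12, and its arrays of ZT4 and ZT16 lay between these and the high ones. Both conditions were high at ZT20 and ZT0, with cosine peaks at ZT20.6 in advance and ZT21.9 in delay (limma adjusted p = 0.000838 and 9.56e-05).

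**Figure D3:**
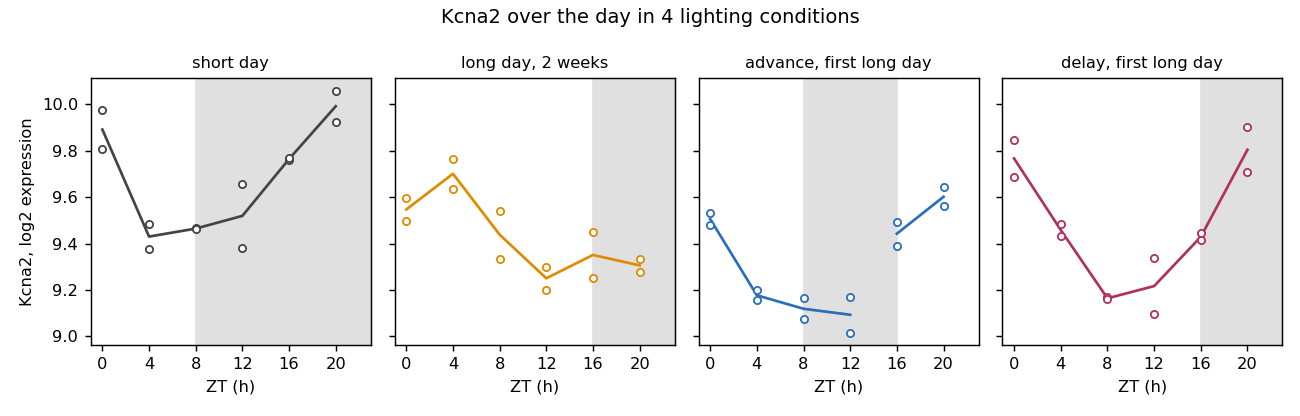
Log2 value of Kcna2 against ZT in hours in the 4 conditions; open circles are the 2 arrays of a time point, the line joins their means (broken in advance where sampling began), and grey marks darkness. The trough lies at ZT4 to ZT12 in short days and in advance, at ZT8 and ZT12 in delay, and at ZT12 to ZT20 in long days.

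The difference in course between long and short days, matched by ZT, passed for Kcna2 alone of 84 members (limma adjusted p = 0.000311), beside 4.3% of all genes. Kcnq3 and Kcnv1 followed with 0.0808 and 0.0811. Over ZT0 to ZT12 alone, without the 4 long-day arrays above, Kcna2 passed with 0.0173. Leaving out any 1 array gave adjusted p-values from 0.00014 to 0.00369. ZT0 fell at 7 h on the clock of the short-day titles and at 3 h of the long-day titles. Matched by clock time instead of ZT, the Kcna2 courses did not pass (limma adjusted p = 0.393) and 0 members did. The second Kcna2 probe set, with a mean of 7.99, followed the first with r = 0.924 over the 24 group means, whereas the others, with means of 7.51 and 4.73, gave r = -0.336 and -0.005. With the median of its 4 probe sets no Kcna2 call over the day passed by limma, with adjusted p-values of 0.363 for the difference in course, 0.163 in short days, 0.999986 in long days, 0.0895 in advance and 0.181 in delay. These correlations share arrays and are given as a description.

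Other members varied in 1 or 2 conditions. In short days Kcnv2 was high in the evening, with 7.75 and 7.14 at ZT12 against 5.89 and 6.23 at ZT4 and 6.57 and 5.53 at ZT16 (limma adjusted p = 0.00313). In the same condition Kcnv1, another silent modifier, read 6.999 and 6.930 at ZT8 and 7.13 and 6.92 at ZT12, against 6.39 and 6.35 at ZT4 (limma adjusted p = 0.00992). Kcnn2, a small-conductance calcium-activated channel that limits firing, was high at the same times, with 7.004 and 6.962 at ZT8 and 6.59 and 6.45 at ZT0 (limma adjusted p = 0.0421). These 3 genes were highest at ZT8 or ZT12, around and after lights off. Kcnd2, an A-type pore, read 10.37 and 10.19 at ZT8 and 10.19 and 10.42 at ZT12 against 9.84 and 9.84 at ZT0 (limma adjusted p = 0.024). Kcnmb2 passed as well (limma adjusted p = 0.0367), with the lowest array, 6.48, and its partner at 7.28 both at ZT16. Without the arrays high in Gh or Prl, 2 members varied in short days by limma, Kcna2 and Kcnd2, and the adjusted p-values of Kcnv2, Kcnv1, Kcnmb2 and Kcnn2 were 0.107, 0.072, 0.0854 and 0.107. Single arrays also ended calls: the first of ZT12 for Kcnv2, either of ZT0 or the second of ZT12 for Kcnd2, 5 arrays for Kcnmb2 (the first of ZT4, the second of ZT12 and ZT16 and both of ZT20) and 7 for Kcnn2 (both of ZT8 and ZT12 and the second of ZT0, ZT16 and ZT20). The calls of Kcnv1 (0.0662), Kcnd2 (0.794) and Kcnmb2 (0.208) ended under the median of the probe sets.

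In delay Kcnc2, Kcnq3 and Kcnq5 each had their highest mean at ZT16, at the end of the added light. Kcnc2, a fast-repolarising pore, rose from 10.66 and 10.65 at ZT8 to 10.996 and 10.882 at ZT12 and 10.94 and 10.97 at ZT16 (limma adjusted p = 0.00346 over the day). Kcnq3 rose from 9.08 and 8.72 at ZT8 to 9.17 and 9.19 at ZT12 and 9.38 and 9.35 at ZT16 (limma adjusted p = 0.00757). Kcnq5 read 7.73 and 7.64 at ZT8, 7.99 and 7.81 at ZT12, 8.23 and 8.14 at ZT16 and 8.11 and 8.07 at ZT20 (limma adjusted p = 0.017). In all 3 genes the arrays of ZT16 lay above those of ZT8. The call of Kcnq3 ended without the first array of ZT16 and that of Kcnq5 without the first of ZT4 or ZT16 or the second of ZT8, with adjusted p-values up to 0.0634 and 0.105. That first ZT16 array had the highest actin difference of the delay arrays, 2.14, the highest mean of neuronal markers, 11.35 beside 10.89 to 11.11 on the others, and the highest mean of the members above 7, 8.84. The part of these in the ZT16 values was not tested. The calls of Kcnq3 (adjusted p = 0.246) and Kcnq5 (0.94) ended under the median of the probe sets.

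Kcnf1, a silent modifier, varied in both first-day conditions. In delay it read 9.15 and 8.82 at ZT8 and 9.53 and 9.52 at ZT12 (limma adjusted p = 0.0143), and in advance 9.56 and 9.44 at ZT8 and 8.87 and 8.67 at ZT0 (limma adjusted p = 0.00241). Its high point thus lay at ZT12 in delay and at ZT8 in advance, and in short days the ZT8 arrays read 9.42 and 9.43. Kcnn2 also varied in advance (limma adjusted p = 0.0225), with 7.03 and 7.18 at ZT8 and 6.64 and 6.57 at ZT16. The Kcnf1 call ended in delay without either array of ZT12 or with the median of its probe sets (adjusted p = 0.118), and in advance without the first of ZT8. That of Kcnn2 ended without the second advance array of ZT0, ZT12, ZT16 or ZT20 or either of ZT8, and without the arrays high in Gh or Prl.

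**Figure D4:**
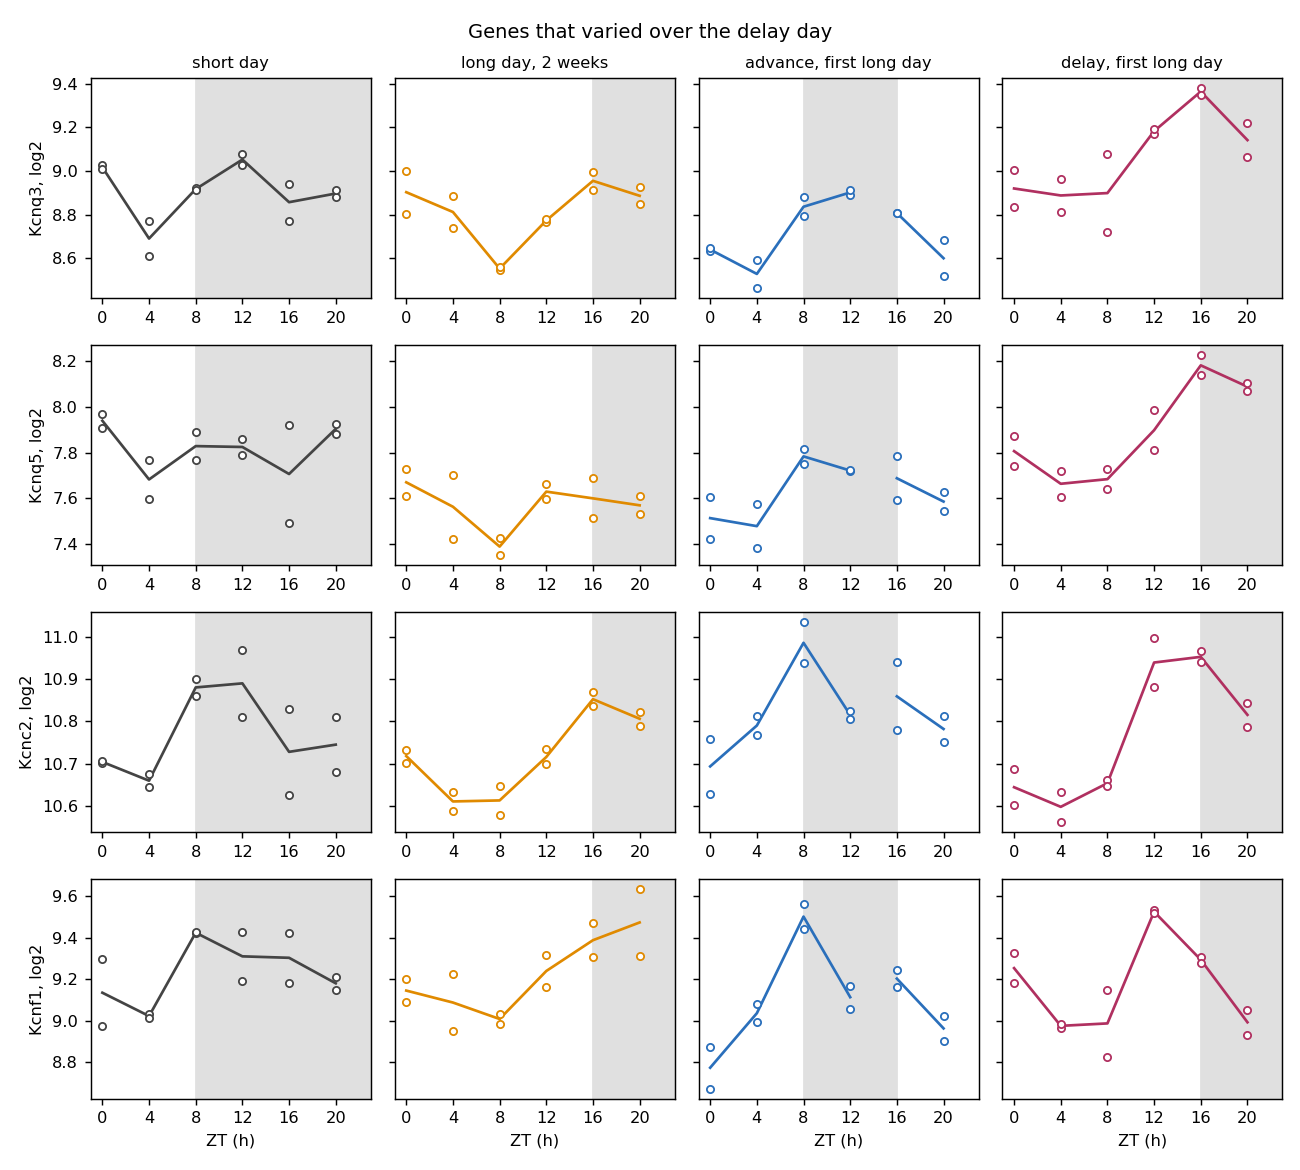
Log2 values of Kcnq3, Kcnq5, Kcnc2 and Kcnf1 against ZT in hours in the 4 conditions; circles are single arrays, lines join the means of 2 (broken in advance where sampling began) and grey marks darkness. In delay the means of Kcnq3, Kcnq5 and Kcnc2 are highest at ZT16 and that of Kcnf1 at ZT12.

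Promoter windows are shown for Kcna2, which varied in every condition, and for Kcnf1, which varied in both first-day conditions. Windows were sought for chosen genes of the daily and light results and not for all of them. Of the 6 chosen genes with a window (Kcna2, Kcnc2, Kcnd2, Kcnf1, Kcnmb2 and Kcnq5), Kcnf1 alone had a window with a searched motif. Kcnip4, which passed over the whole added evening and was not among those chosen, also had a window with AGGTCA. Kcnk3, Kcnq3, Kcnv1 and Kcnv2 were also sought and had no window. The windows printed are the 250 bases ahead of the annotated start in RefSeq on GRCm38.p6, 5′ to 3′ on the gene's strand. They lie at chr3:107101317-107101566 on the plus strand for Kcna2 and chr12:17176889-17177138 on the minus strand for Kcnf1. Capitals mark motif matches on either strand.
Kcna2: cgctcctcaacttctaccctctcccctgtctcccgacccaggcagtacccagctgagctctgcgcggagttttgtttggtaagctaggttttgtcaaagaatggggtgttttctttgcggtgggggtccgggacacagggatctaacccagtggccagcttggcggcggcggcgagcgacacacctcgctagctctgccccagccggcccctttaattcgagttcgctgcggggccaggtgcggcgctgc
Kcnf1: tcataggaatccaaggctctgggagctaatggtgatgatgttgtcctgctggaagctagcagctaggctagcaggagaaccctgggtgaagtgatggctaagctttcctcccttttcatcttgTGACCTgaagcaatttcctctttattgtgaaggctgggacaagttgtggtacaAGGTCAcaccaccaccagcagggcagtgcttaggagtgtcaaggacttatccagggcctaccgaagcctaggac
The letters searched on both strands were the E-box CACGTG and its variant CACGTT, the D-box TTATGTAA, the ROR half-site AGGTCA, the cAMP response element TGACGTCA and its 5-base start TGACG. The last pair overlap. The Kcna2 window held none of them, and 62.4% of its bases were G or C. The Kcnf1 window held AGGTCA at -74 and its reverse complement TGACCT at -127 from the start. Of 32851 windows of that length 14.0% held this half-site, and of the 89 windows of 64 members 5.62% did. The E-box CACGTG was in 6.02% of all windows and 5.62% of the members' windows, CACGTT in 3.85%, TTATGTAA in 0.819%, TGACG in 17.8% and TGACGTCA in 1.55% of all windows. A match describes letters and shows no binding.

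The first 4 h of light were compared with the same hours of darkness in short days. For light in the late night, ZT20 minus ZT16 in advance was set against the same difference in short days, and 1 of 84 members passed, beside 0.22% of all genes. This was Kcnmb2. In advance it went from 8.06 and 7.76 at ZT16 to 7.51 and 7.56 at ZT20, and in short days from 7.28 and 6.48 to 7.57 and 7.65. From ZT16 to ZT20 it fell in advance and rose in short days, and these changes differed by -1.11 ± 0.24 (limma adjusted p = 0.0227). After 4 h of light the advance arrays of ZT20 lay close to the short-day arrays. Both advance arrays of ZT16, taken as the light began, lay above the short-day arrays of that time. The difference thus lay mainly at ZT16 and not at ZT20, and age and cohort also differ between these conditions. Of the 8 arrays concerned, 6 ended the call when left out. The farthest of them was the second short-day array of ZT16, the one at 6.48, without which the difference was -0.71 (limma adjusted p = 0.434). The others were both short-day arrays of ZT20, the first advance array of ZT16 and both advance arrays of ZT20, with adjusted p-values of 0.0792, 0.136, 0.271, 0.115 and 0.108 in that order. It was 0.0767 without the arrays high in Gh or Prl and 0.399 with the median of its probe sets.

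Kcnk3 gave the next smallest p in that comparison. Its arrays read 8.75 and 8.55 at ZT16 and 8.13 and 8.00 at ZT20 in advance, against 8.73 and 8.82 and then 8.96 and 9.01 in short days, a difference of -0.79 ± 0.19 that did not pass (limma adjusted p = 0.0953). The values of ZT20 in advance were the lowest 2 of its 48 arrays. The level was back at 8.55 and 8.66 at ZT0, 8.73 and 8.89 at ZT4 and 8.95 and 8.92 at ZT8, and over the whole advance day Kcnk3 varied with the smallest p of the members (limma adjusted p = 0.000565; 0.619 with the median of its probe sets). Kcnmb4os2 followed with -0.46 ± 0.18 (limma adjusted p = 0.693).

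For light in the evening, ZT12 minus ZT8 in delay was set against the same difference in short days. By limma 0 of 84 members passed, beside 0.0385% of all genes. An unadjusted p under 0.05 was found for 10 of the 84 members, beside 1380 of all 18194 genes. Kcnf1 came nearest with 0.65 ± 0.17 (adjusted p = 0.39). It went from 9.15 and 8.82 to 9.53 and 9.52 in delay and from 9.42 and 9.43 to 9.19 and 9.43 in short days, so the delay arrays moved up while 1 short-day array moved down. Kcna5 differed by 0.65 ± 0.20 and Kcnn2 by 0.53 ± 0.18, each with a limma adjusted p of 0.627.

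The response to late-night light was then tested against the response to evening light, and Kcnk3 alone of 84 members passed, beside 0.159% of all genes. Its arrays in delay read 8.74 and 8.72 at ZT8 and 9.27 and 9.05 at ZT12, against 8.86 and 8.93 and then 8.95 and 8.64 in short days. It was higher after 4 h of evening light and lower after 4 h of late-night light, and the responses differed by -1.32 ± 0.27 (limma adjusted p = 0.0282). Centring moved the median of all genes in this comparison from -0.108 to 0.039, and Kcnk3 then differed by -1.18 (limma adjusted p = 0.0471). Leaving out any of 9 of the 16 arrays ended the call, with adjusted p-values up to 0.112. These were, in short days, the first array of ZT8, the second of ZT12, the second of ZT16 and both of ZT20, in advance the first of ZT16 and the second of ZT20, and in delay the second of ZT8 and the first of ZT12. Its other probe sets differed by -0.10 and 0.05, and with the median of the probe sets the call ended (adjusted p = 0.958). Kcnf1 and Kcna5 followed with -0.77 ± 0.24 and -0.82 ± 0.29, which did not pass (limma adjusted p = 0.3 and 0.379).

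**Figure D5:**
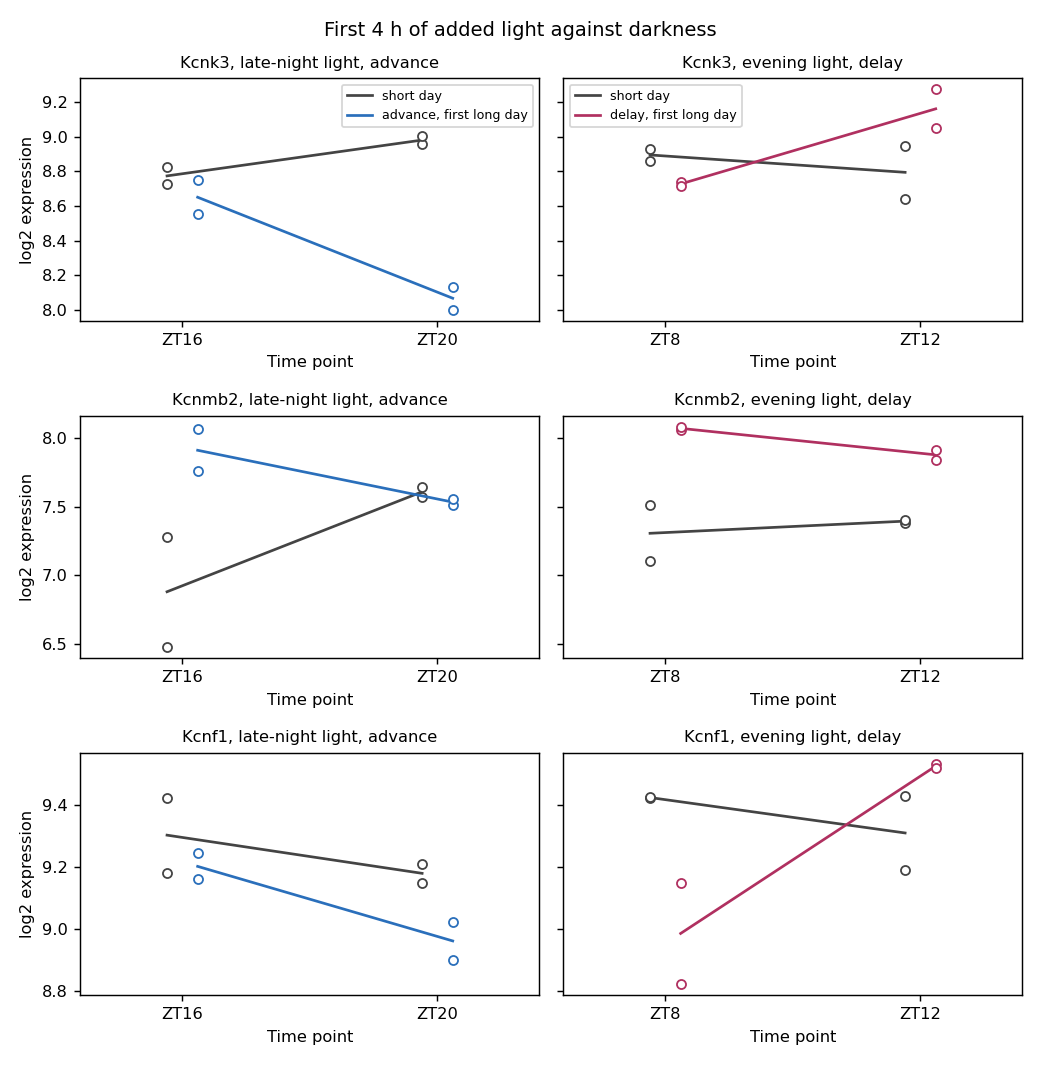
Log2 values of Kcnk3, Kcnmb2 and Kcnf1 at ZT16 and ZT20 in short days and advance, and at ZT8 and ZT12 in short days and delay; points are single arrays, and lines join the means of 2. Kcnk3 is low at ZT20 in advance and high at ZT12 in delay, and Kcnmb2 has 1 low short-day array at ZT16.

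Over the whole added evening, taken as the mean of ZT12 and ZT16 less that of the 3 daytime points ZT0, ZT4 and ZT8 in delay, and set against short days, 8 of 84 members passed by limma, 6 higher and 2 lower. This was 9.52%, beside 6.11% of all genes, 5.16% higher and 0.951% lower. The median change of all genes moved from 0.059 to -0.064 when the arrays were centred, and the higher calls then ended: 0 members were higher and 6 lower. The higher members were Kcnip4 with 0.39 ± 0.10, Kcnt1 with 0.45 ± 0.14, Kcnk3 with 0.41 ± 0.12, Kcnq5 with 0.37 ± 0.10, Kcnq3 with 0.29 ± 0.09 and Kcnc2 with 0.25 ± 0.07. After centring they were at 0.27, 0.33, 0.29, 0.25, 0.17 and 0.13 in that order, none of which passed. Kcnh3 fell by 0.73 ± 0.19 and Kcnab3, a beta subunit, by 0.40 ± 0.11, and both also passed after centring. With the median of the probe sets both calls ended, as did those of the higher members other than Kcnc2. Kcnc2 has a single probe set, so that setting could not change its values. Of the 20 arrays, leaving out any 1 of 8 ended the call of Kcnh3 and any 1 of 9 that of Kcnab3. Kcnab3 had a mean of 6.28, and its other probe set stood at 0.02. In delay Kcnh3 read 10.64 and 10.34 at ZT8 and 9.93 and 10.03 at ZT12, and in short days 9.81 and 10.09 and then 10.33 and 9.99. Without the arrays high in Gh or Prl 0 members passed by limma, and leaving out single arrays gave from 0 to 17, with 0 when the short-day second array of ZT0, first of ZT4 or first of ZT8 or the delay first array of ZT12 was left out, and 17 without the second short-day array of ZT4. Medians of several marker lists differed from that of all genes here. The median change was 0.287 for 11 neuronal markers, of which Slc32a1 alone passed, by 0.54, 0.384 for 6 ependymal and 0.278 for 6 oligodendrocyte markers, of which 0 passed by limma, 0.185 for 8 astrocyte markers, of which 1 passed, and -0.310 for 7 pars distalis markers, of which 0 passed. Their part in the members' changes, and that of the first delay array of ZT16 described above, was not tested.

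The members named in the most of the 12 comparisons were Kcna2, which passed in 8, Kcnk3, which passed in 5, and Kcnmb2, Kcnq5 and Kcnv2, which passed in 4 each. At the other end 25 members passed in none, and 5 of these lay above 7: Kcna4, Kcna7, Kcnj11, Kcnj16 and Kcnq1ot1. Kcnq5 in long days stayed between 7.35 and 7.73, in short days between 7.49 and 7.97, in advance between 7.38 and 7.81 and in delay between 7.61 and 8.23. Kcnv2 in delay ran from 5.51 to 7.26 and in advance from 6.57 to 7.83. Its 12 arrays spread more in short days, with an SD of 0.64, than in long days, with 0.20.

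Genes that work beside potassium channels were read from lists of partners and of other ion transporters. Of 12 potassium channel partners without a Kcn symbol 11 were measured, and 4 passed between long and short days by limma, all lower, a share below the 46.7% of all genes. With the arrays centred 5 passed, 3 higher and 2 lower. Dpp6 and Dpp10, membrane partners of A-type channels, fell by 0.37 and 0.18, Amigo1, a partner of delayed rectifiers, by 0.14 and Abcc8, the sulphonylurea receptor of ATP-sensitive channels, by 0.14. Of 16 measured voltage-gated calcium channel genes 8 passed, 3 higher and 5 lower, among them Cacna1h with -0.66, Cacnb1 with -0.60 and Cacnb4 with 0.37. Of 12 measured HCN and sodium channel genes 8 passed, 3 higher and 5 lower. Of 9 measured sodium-potassium pump genes 6 passed, 1 higher and 5 lower, with Atp1b3 at 0.34 and Fxyd1, a pump regulator, at -0.71. After centring the splits of these lists were 5 higher and 4 lower, 5 and 4, and 2 and 5.

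On the first day against short days, where 55.1% of all genes passed, 8 of the 11 partners did, 3 higher and 5 lower, and Dpp6 fell by 0.40. Of the calcium channel genes 10 passed, 1 higher and 9 lower, and Cacna1h fell by 0.76. Of the HCN and sodium channel genes 10 passed, 4 higher and 6 lower, and of the pump genes 7, 1 higher and 6 lower. After centring the splits were 3 higher and 4 lower, 3 and 6, 5 and 5, and 2 and 5 in that order. Between advance and delay 1, 2, 3 and 3 genes of these lists passed in that order, beside 24.1% of all genes, and the partner that passed was Amigo1, lower in advance by 0.18.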

How the data were processed

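The 48 arrays were analysed as the log2 probe-set values the authors deposited. The submitters' processing notes name RMA and R 2.8.0. Array medians lay between 6.98 and 7.03, and no 2 arrays held identical values. Background correction and normalization were therefore not repeated. Of 45101 probe sets, 34958 carried 1 gene symbol, 932 several and 9211 none. Where a gene had several probe sets, as 46 members had, the brightest on average was used. All 84 members matched the RefSeq gene table by Entrez identifier.

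With limma 3.58.1 in R 4.3.3, 24 group means of 2 arrays were fitted, with 24 residual degrees of freedom, variances moderated with a trend, two-sided tests and Benjamini-Hochberg adjustment over 18194 genes at 0.05. The fit was tested on simulated data. Changes are differences of log2 values with SE. For each comparison the text names passed members by smallest p, at most 12 rises and 12 falls (6 in an F test), or the 3 smallest p-values where fewer than 3 passed, and values in every group for the members passing most often. Members named beyond this rule, the time points quoted and the promoters shown were chosen after their values were seen. The members and lists were chosen with earlier results of these data known. Precision is limited by the number of arrays. Alternatives are given in the closing section.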

Additional observations from a re-analysis of the deposited data

Results flagged for a closer look

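The daily course of Kcna2 differed between long and short days when matched by ZT, by a test of the difference itself (limma F test, adjusted p = 0.000311). Its highest time-point mean was at ZT20 in short days and at ZT4 in long days, and matched by clock time the courses did not pass (adjusted p = 0.393). With the median of its 4 probe sets the difference did not pass either (adjusted p = 0.363), and over ZT0 to ZT12 alone it passed with 0.0173.

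The response of Kcnk3 to the first 4 h of light differed between late night and evening by -1.32 on the log2 scale (limma adjusted p = 0.0282). The 2 responses use different short-day arrays, each with 2 arrays per time point. With the median of its probe sets it did not pass (adjusted p = 0.958).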

How the results depend on the processing

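Counts of members that passed are given by setting, after limma. Over all genes the counts moved too when single arrays were left out. They ran from 8057 to 8721 for long against short days, 3708 to 4815 for advance against delay and 9417 to 10360 for the first day. Variation over the short day ran from 901 to 2765, over the long day from 209 to 419, in advance from 341 to 505 and in delay from 172 to 273. The course ran from 499 to 1456, the late-night step from 18 to 334 and the whole evening from 139 to 2632. The comparisons of day means were the steadiest: leaving out single arrays gave 34 to 39 of 84 members for long against short days (37 with all arrays), 11 to 14 for advance against delay (12) and 37 to 43 for the first-day conditions against short days (41). Only genes above 7 gave 27 for the last, where fewer members were tested, and the actin covariate gave 23 for the first. Leaving out single arrays gave 4 to 11 for variation over the short day (6 with all arrays), 0 to 2 over the long day (1), 2 to 5 in advance (4), 3 to 7 in delay (5), 1 to 6 for the course of long against short days (1), 0 to 1 for the late-night step (1), 0 for the evening step, 0 to 2 for the difference of the steps (1) and 0 to 17 for the whole evening (8). Beyond the arrays named above, variation over the short day counted 10 without the second array of ZT4 and 11 without the first of ZT16, and the course counted 6 without that array, 4 without the first long-day array of ZT20 and 2 without the second short-day array of ZT4 or ZT8. The difference of the steps counted 2 without the first short-day array of ZT16. The whole evening counted 1 without the first short-day array of ZT12, the second delay array of ZT0 or ZT8 or the first of ZT16, 4 without the first delay array of ZT4 and 5 without the second of ZT12. Variation counted 2 over the long day without the first array of ZT20, 2 in advance without the first of ZT8 and 3 in delay without the first of ZT16.

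With the median of a gene's probe sets the counts were 2 over the short day, 0 over the long day, 2 in advance, 1 in delay, 0 for the course, 0 for the late-night step, 0 for the difference of the steps and 1 for the whole evening. For members with a single probe set, among them Kcnc2, Kcnv2 and Kcnn2, the values stay the same by construction. Under that setting the change of Kcnq5 between long and short days was 0.133, of Kcnc1 between advance and delay 0.0121, of Kcnip2 on the first day 0.0277 and of Kcnk3 in the late-night step 0.142, all of the opposite sign, and the cause was not tested. Arrays centred on their medians over the genes above 7 gave 11 over the short day, 0 over the long day and 3 for the course. A variance prior without trend gave 0 over the long day and 5 for the whole evening. Short-day and long-day arrays alone gave 3 over the short day and 0 over the long day, from fewer arrays. Matching by clock time gave 0 for the course. Without the 4 long-day arrays of ZT16 and ZT20 the counts were as with all arrays. Without the arrays high in Gh or Prl, chosen like the last setting after seeing the data, counts were 2 over the short day, 0 over the long day, 0 for the late-night step and 0 for the whole evening.

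Over the series the replicate numbers did not meet the rule for pairing: differences between replicates 1 and 2 had a median correlation of 0.0515 over 276 pairs of groups, 98 of them over 0.1. Within a condition 14 of 15 pairs were over 0.1 in long days (median 0.238), 11 in delay (0.273), 6 in advance (0.0698) and 3 in short days (0.0328). With the replicate number as a block the counts were 2 over the long day and 2 for the late-night step, where Kcnk3 then passed (adjusted p = 0.0496). With a block within each condition they were 10 over the short day, 2 over the long day, 7 in advance, 8 in delay, 3 for the course, 2 for the late-night step and 14 for the whole evening. Over 97 named results and all settings, 2729 of 3000 values kept direction and side of the threshold, 256 no longer passed, 11 newly passed and 4 changed sign. F tests have no direction, so for them only the side of the threshold was compared. Results that passed in neither fit count as kept, and most settings left out a single array. The total is therefore not a measure of how stable the calls are. The number of arrays, 2 per time point, limits the precision of the 4 h steps.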
